A study of Homo sapiens with 6 samples.

Results

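Long intergenic RNAs expressed in both of 2 colorectal cancer (CRC) lines were described in RNA bound by the acetyltransferase NAT10, in total RNA and in peaks of N4-acetylcytidine (ac4C). The set holds 132 genes that the annotation of the deposited table classes as lincRNA and whose FPKM (fragments per kilobase, corrected for library size) was at least 1 in all 4 libraries of the RIP table. Of 58302 genes in that table, 7493 were lincRNA genes, 2635 of these were above 0 in at least 1 library and 1080 reached an FPKM of 1 in at least 1 library. The rule was met by 140 lincRNA genes, of which 8 well-known ones, among them MALAT1, NEAT1 and 4 SNHG genes, were left out by name. LINC02001, now named SNHG30, stayed in because the rule reads the names of the deposited table. Since the measured levels chose the members, those levels are a description and were not tested. Just inside the threshold stood AP003469.2, with a lowest FPKM of 1.02, and LINC01106, with 1.03. Just outside it stood HCG27, with 0.993, and BX537318.1, with 0.987.

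SW480 and DLD-1 are epithelial lines from colorectal tumours, here labelled wild type and untreated, and each line stands for 1 cell culture model rather than for tumours. RIP-seq sequenced RNA pulled down with an antibody against NAT10, acRIP-seq sequenced RNA pulled down with an antibody against ac4C, and Input was total RNA. With 3 kinds of library in 2 lines there were 6 groups of 1 library, so every difference below compares libraries and carries counting error only. The smallest whole reads behind the FPKM values summed to at least 26313722 in RIP labelled SW480, 11987421 in Input labelled SW480, 21874811 in RIP labelled DLD-1 and 11210704 in Input labelled DLD-1. Of 10 colorectal epithelial markers, 7 to 8 were at an FPKM of at least 1 in each library, while 11 markers of blood, vessel, stroma and liver summed to between 0.812 and 1.87 FPKM. In such bulk RNA, fewer cells with an RNA and less of it per cell cannot be told apart.

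Long intergenic RNAs are transcribed from their own promoters between coding genes, are capped, mostly spliced and polyadenylated like messenger RNA, and carry no long open reading frame. Many start head to head with a coding gene and share its promoter region, while others serve as hosts from which microRNAs are cut. NAT10 is the enzyme that places ac4C on ribosomal and transfer RNA and has been linked to ac4C on messenger RNA. Many long intergenic RNAs stay in the nucleus, and their levels differ between cell types more than those of coding genes do.

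The libraries went against their labels, which bears on every ratio below. Across the 132 members, log2(FPKM + 1) of RIP labelled SW480 had a Pearson correlation of 0.69 with Input labelled DLD-1 and of 0.50 with the Input of its own label. RIP labelled DLD-1 had a correlation of 0.73 with Input labelled SW480 and of 0.51 with Input labelled DLD-1. Across 9912 protein-coding genes at the same threshold the order was the same, with 0.89 and 0.80 for RIP labelled SW480 and 0.90 and 0.77 for RIP labelled DLD-1. These correlations run across genes, which share libraries and depth. Ratios are therefore given with both Inputs, that of the same label and that of the other line's label, and each library is called by its label.

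Of the 132 members, 79 were found in RefSeq on GRCh38.p14 by symbol or synonym, and 65 of these have a promoter window there, counted from 250 bases before to 50 bases after the most upstream start. The members found lay on 23 chromosomes, with 9 on chromosome 19 and 8 on chromosome 17. Only 2 members carried a divergent-transcript name (ending in -DT) in the deposited table, whereas 23 carry one among current symbols. In 23 of the 65 members with a window (35.4%), a coding gene started on the opposite strand within 1000 bases upstream. The same was found for 14.1% of 11384 lncRNA genes and 12.3% of 15813 coding genes with a window. For the 21 members whose nearest coding start lay upstream on the opposite strand within 2000 bases, the median distance was 189 bases. For 4 further members the coding start lay downstream on the opposite strand, so that both genes overlap at their 5′ ends, and the sources do not say whether reads were counted by strand.

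**Figure D1:**
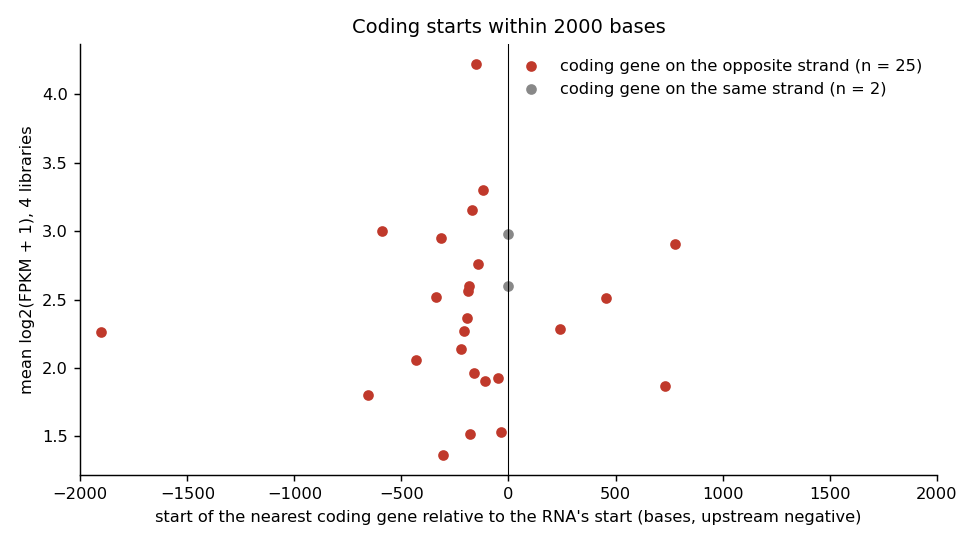
Distance from the start of each long intergenic RNA to the start of its nearest coding gene (horizontal axis, bases, upstream negative) against the mean log2(FPKM + 1) of the RNA over 4 libraries (vertical axis), for the 27 genes within 2000 bases. Each point is 1 gene, and 25 of the 27 face a coding gene on the opposite strand.

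The promoter windows were rich in C and G. Their median GC content was 66.7%, against 50% in the lncRNA windows and 62.7% in the coding windows. A GC box (GGGCGG on either strand) stood in 43 of the 65 windows (66.2%), against 25.5% of lncRNA, 58.5% of coding and 44.6% of all windows. A CCAAT box (CCAAT on either strand) stood in 30 windows (46.2%), against 35.7% of all windows, and TATAAA on either strand in 4 (6.15%), against 12.0%. A GC box and a CCAAT box can overlap by their outer Cs. Such matches describe letters in the windows and are no evidence that a factor binds there.

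Windows of 5 members that recur in the results are shown in RefSeq sequence on GRCh38.p14, 5′ to 3′ along the RNA, with GC boxes and CCAAT boxes in capitals. NORAD is the most abundant member, LINC02086 had the widest gap between the Inputs and AC103702.2 is its neighbour, and AP002360.2 (EMSY-DT) and MIR22HG stand for the divergent starts.
NORAD, chr20:36050911-36051210, minus strand: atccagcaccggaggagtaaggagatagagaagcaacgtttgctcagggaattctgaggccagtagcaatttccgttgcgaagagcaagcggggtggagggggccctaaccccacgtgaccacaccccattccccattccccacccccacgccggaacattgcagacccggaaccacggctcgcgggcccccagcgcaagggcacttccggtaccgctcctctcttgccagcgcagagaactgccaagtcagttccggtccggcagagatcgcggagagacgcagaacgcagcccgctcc
LINC02086, chr17:48642377-48642676, plus strand: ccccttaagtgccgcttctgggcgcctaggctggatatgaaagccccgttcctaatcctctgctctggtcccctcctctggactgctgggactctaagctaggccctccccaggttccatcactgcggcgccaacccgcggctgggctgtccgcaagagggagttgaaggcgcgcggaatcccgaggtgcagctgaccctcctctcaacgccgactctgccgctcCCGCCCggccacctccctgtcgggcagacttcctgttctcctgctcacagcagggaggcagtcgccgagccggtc
AC103702.2, chr17:48639281-48639580, minus strand: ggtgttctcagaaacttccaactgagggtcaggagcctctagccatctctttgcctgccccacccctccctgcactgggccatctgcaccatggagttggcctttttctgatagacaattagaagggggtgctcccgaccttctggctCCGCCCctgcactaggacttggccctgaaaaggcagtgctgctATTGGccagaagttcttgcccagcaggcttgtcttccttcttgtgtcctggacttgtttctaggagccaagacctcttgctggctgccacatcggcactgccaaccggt
AP002360.2, chr11:76444631-76444930, minus strand: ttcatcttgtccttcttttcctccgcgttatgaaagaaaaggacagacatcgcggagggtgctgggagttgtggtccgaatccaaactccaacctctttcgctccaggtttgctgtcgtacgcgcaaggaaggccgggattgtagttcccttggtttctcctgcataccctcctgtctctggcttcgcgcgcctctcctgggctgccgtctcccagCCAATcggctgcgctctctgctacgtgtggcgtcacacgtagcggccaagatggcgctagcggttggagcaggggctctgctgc
MIR22HG, chr17:1716161-1716460, minus strand: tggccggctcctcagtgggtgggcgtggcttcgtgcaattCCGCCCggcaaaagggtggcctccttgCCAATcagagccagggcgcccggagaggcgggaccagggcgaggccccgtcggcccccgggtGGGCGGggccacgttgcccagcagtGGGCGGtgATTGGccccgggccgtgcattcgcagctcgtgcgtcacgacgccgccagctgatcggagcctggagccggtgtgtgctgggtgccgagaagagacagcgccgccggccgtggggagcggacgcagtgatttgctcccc

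The starts of LINC02086 and AC103702.2 lie 3297 bases apart on chromosome 17 and point away from each other. AC006504.5 and LINC00662 on chromosome 19 start 509 bases apart, also on opposite strands. The start of MIR22HG faces that of the coding gene WDR81 at 313 bases, and that of EMSY-DT faces EMSY at 338 bases. No GC box and no CCAAT box was found in the window of NORAD, whose GC content was 63.0%.

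Several members are hosts of microRNAs, whose mature forms pair with target messenger RNAs through a seed at bases 2 to 8. The main arms held within 4 of the hosts are shown, with the seed in capitals.
hsa-let-7a-5p: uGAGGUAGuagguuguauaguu
hsa-let-7b-5p: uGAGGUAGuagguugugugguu
hsa-miR-221-3p: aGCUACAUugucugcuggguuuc
hsa-miR-222-3p: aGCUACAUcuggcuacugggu
hsa-miR-23a-3p: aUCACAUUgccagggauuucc
hsa-miR-27a-3p: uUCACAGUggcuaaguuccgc
hsa-miR-24-3p: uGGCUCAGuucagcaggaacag
hsa-miR-4435: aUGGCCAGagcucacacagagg
The let-7 pair lies within MIRLET7BHG and shares the seed GAGGUAG, and miR-221 and miR-222 lie within MIR222HG and share the seed GCUACAU. AC020916.1, whose current symbol is MIR23AHG, holds miR-23a, miR-27a and miR-24, which have 3 different seeds. Mature microRNAs were not measured here, since the libraries are of long RNA.

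Members were expressed at low levels. Their median FPKM was 3.81 in RIP labelled SW480, 3.72 in Input labelled SW480, 3.16 in RIP labelled DLD-1 and 5.44 in Input labelled DLD-1, against 10.5 to 12.5 for protein-coding genes at the same threshold. Only 23 of the 132 reached an FPKM of 5 in all 4 libraries, and 9 reached 10. Together they took between 0.178% and 0.222% of the FPKM sum of a library. Each member rested on 7 to 19855 reads per library, with a median of 89.5, and the median counting error of a log2 ratio was 0.17 in both lines. A second table, deposited with the acRIP data, gives Input levels of both lines, which were scaled to the RIP table by the median coding gene. Of the 132 members, 98 were at an FPKM of at least 1 in both of its Inputs, 8 were listed at 0 in at least 1 and 2 in both. Its Inputs stood at least 2-fold from those of the RIP table for 23 members (17.4%) in the SW480 label and 22 (16.7%) in the DLD-1 label, against 7.94% and 8.06% of all genes.

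**Figure D2:**
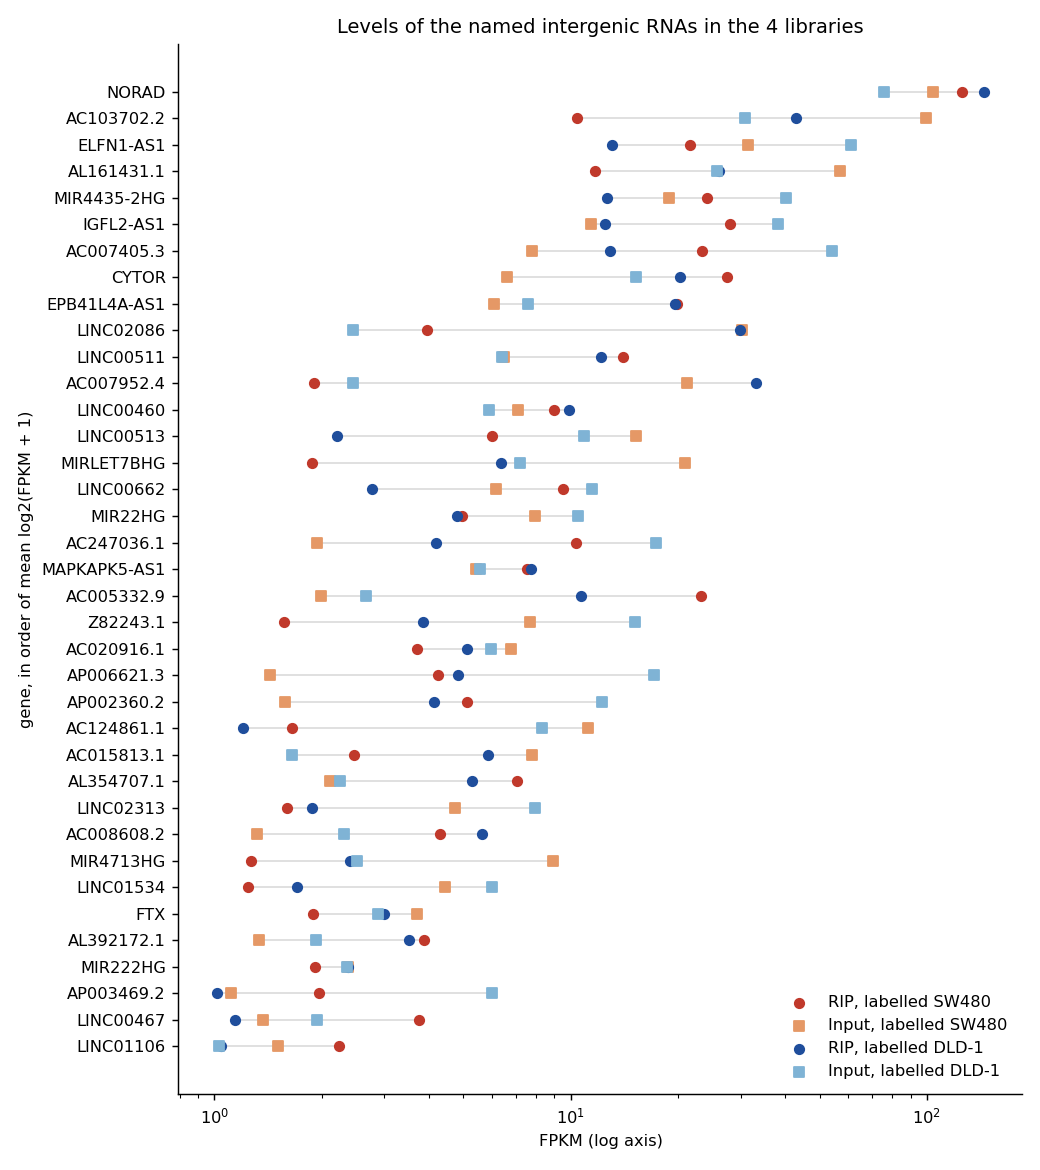
FPKM (horizontal axis, log scale) of the 37 named long intergenic RNAs in the 4 libraries of the RIP table, ordered from top to bottom by mean log2(FPKM + 1). Circles are RIP and squares are Input libraries, red tones SW480 and blue tones DLD-1 labels, each point 1 library. NORAD lies at the top, between 75.9 and 145 FPKM, and LINC02086 has 2 libraries near 30.0 and 2 under 4.

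NORAD (ENSG00000260032), an abundant RNA that binds PUMILIO proteins and is needed for stable chromosome number, was the highest member. Its FPKM was 126 in RIP and 104 in Input labelled SW480, and 145 in RIP and 75.9 in Input labelled DLD-1. All 4 libraries were high, and both RIP libraries stood above both Inputs of this table. Its log2 ratio of RIP to Input, always computed on FPKM + 1, was 0.27 ± 0.019 (counting SE) for the SW480 labels and 0.92 ± 0.022 for the DLD-1 labels. Over the scaled Inputs of the second (acRIP) table the ratios were -0.10 and 0.53, so the first changed sign. NORAD alone took between 6.83% and 16.7% of the members' FPKM in these 4 libraries.

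AC103702.2 (ENSG00000272763, now LINC03057), next to LINC02086 on chromosome 17, was the second highest on average. Its FPKM was 10.4 in RIP and 99.5 in Input labelled SW480, and 43.0 in RIP and 30.8 in Input labelled DLD-1. Its Input was thus high in the SW480 label and its RIP level high in the DLD-1 label. The log2 ratio was -3.14 ± 0.074 for the SW480 labels, the lowest of all members, and 0.47 ± 0.072 for the DLD-1 labels.

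AL161431.1 (now LINC03061) had 11.7 and 57.1 FPKM in RIP and Input labelled SW480 and 26.0 and 25.8 FPKM in those labelled DLD-1. Its log2 ratio was -2.20 ± 0.042 in the first pair and 0.011 ± 0.045 in the second. ELFN1-AS1, an antisense-named RNA on chromosome 7, had 21.6 and 31.4 FPKM in the SW480 labels and 13.0 and 61.1 FPKM in the DLD-1 labels, so that RIP was below Input in both, although over the scaled acRIP-table Input the ratio in the SW480 label was 0.07. IGFL2-AS1 had 28.1 and 11.4 FPKM in the SW480 labels and 12.5 and 38.3 FPKM in the DLD-1 labels, and its order of RIP and Input turned over between the lines.

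CYTOR and MIR4435-2HG are near-identical copies on chromosome 2, both known to be raised in several cancers. Their start windows on GRCh38.p14 are shown for the stretch that they share.
CYTOR, chr2:87455177-87455476, plus strand: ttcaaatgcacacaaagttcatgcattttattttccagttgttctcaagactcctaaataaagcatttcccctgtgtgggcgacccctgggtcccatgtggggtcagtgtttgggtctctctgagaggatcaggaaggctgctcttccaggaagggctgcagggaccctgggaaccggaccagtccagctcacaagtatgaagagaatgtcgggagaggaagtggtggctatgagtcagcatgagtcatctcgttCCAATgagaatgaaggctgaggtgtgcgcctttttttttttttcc
MIR4435-2HG, chr2:111495112-111495411, minus strand: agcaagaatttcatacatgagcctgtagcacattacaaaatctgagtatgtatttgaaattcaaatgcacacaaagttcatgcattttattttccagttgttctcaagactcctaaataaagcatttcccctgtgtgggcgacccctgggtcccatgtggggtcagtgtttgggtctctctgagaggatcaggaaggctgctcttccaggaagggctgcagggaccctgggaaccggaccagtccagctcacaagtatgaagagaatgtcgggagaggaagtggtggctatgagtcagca
Bases 1 to 241 of the CYTOR window are identical to bases 60 to 300 of the MIR4435-2HG window. The FPKM of CYTOR was 27.5 in RIP and 6.62 in Input labelled SW480, and 20.3 and 15.3 in those labelled DLD-1. That of MIR4435-2HG was 24.1 and 18.9 in the SW480 labels and 12.6 and 40.2 in the DLD-1 labels. In the acRIP-table Inputs MIR4435-2HG stood at 2.95 and 6.81 FPKM, well below its values of 18.9 and 40.2, and CYTOR at 4.94 and 7.78. Reads of such copies may be split between them in counting, so values of both genes are uncertain. Over the scaled acRIP-table Input the ratio of MIR4435-2HG in the DLD-1 label changed from -1.59 to 0.26.

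RIP was compared with Input to see which of these RNAs came down with NAT10. For the SW480 labels the median log2 ratio of the 132 members was 0.20 (all 10825 genes at FPKM of at least 1, 0.17). In that pair 22 members (16.7%) were at least 2-fold above Input, against 17.2% of all genes, and 21 (15.9%) at least 2-fold below, against 9.7%. For the DLD-1 labels the median was -0.46 (all genes, 0.08), with 10 members (7.58%) at least 2-fold above Input against 17.0%, and 38 (28.8%) at least 2-fold below against 12.0%. Over the 23 members at FPKM of at least 5 this median was 0.15, the opposite direction. At FPKM of at least 1 the share above Input in the SW480 labels thus stood near the background, and the share below Input stood above it in both. For the 23 members at FPKM of at least 5, shares were not set beside those of all genes.

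Against Inputs of the opposite label, members also lay low. The median log2 ratio of RIP labelled SW480 over Input labelled DLD-1 was -0.32 (all genes, 0.12), with 7 members (5.3%) at least 2-fold above against 10.5% and 22 (16.7%) at least 2-fold below against 4.61%. For RIP labelled DLD-1 over Input labelled SW480 the median was -0.06 (all genes, 0.10), with 13 members (9.85%) above against 10.6% and 17 (12.9%) below against 4.44%. At FPKM of at least 1, a larger share of members than of all genes was at least 2-fold below Input in all 4 pairings. Among the 156 antisense RNA genes at the same threshold this share was between 9.62% and 19.2%, among the 248 processed pseudogenes between 18.1% and 27%, and among coding genes between 2.7% and 10.8%. Processed pseudogenes had a larger share than the members in all pairings but that of the DLD-1 labels. With 1 library per group, these shares describe 4 libraries.

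The ratio kept its sign in both lines for 63 members (47.7%), against 52.8% of all genes. It was at least 2-fold from Input in the same direction in both lines for 10 (7.58%), against 5.61%. Both ratios were at least 2-fold above Input for 3 members, against 4.05% of all genes, and at least 2-fold below for 7, against 1.56%. A further 12 were at least 2-fold apart from Input in opposite ways, against 5.89%. The sign of the ratio differed between the lines for 69 members (52.3%), against 47.2% of all genes. Over the Inputs of the other label it differed for 51 (38.6%), against 19.8% of all genes, and the correlation of both ratios across members was 0.51, against 0.81 across all genes. Over the Inputs of the same label that correlation was -0.11 across members and 0.01 across all genes.

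**Figure D3:**
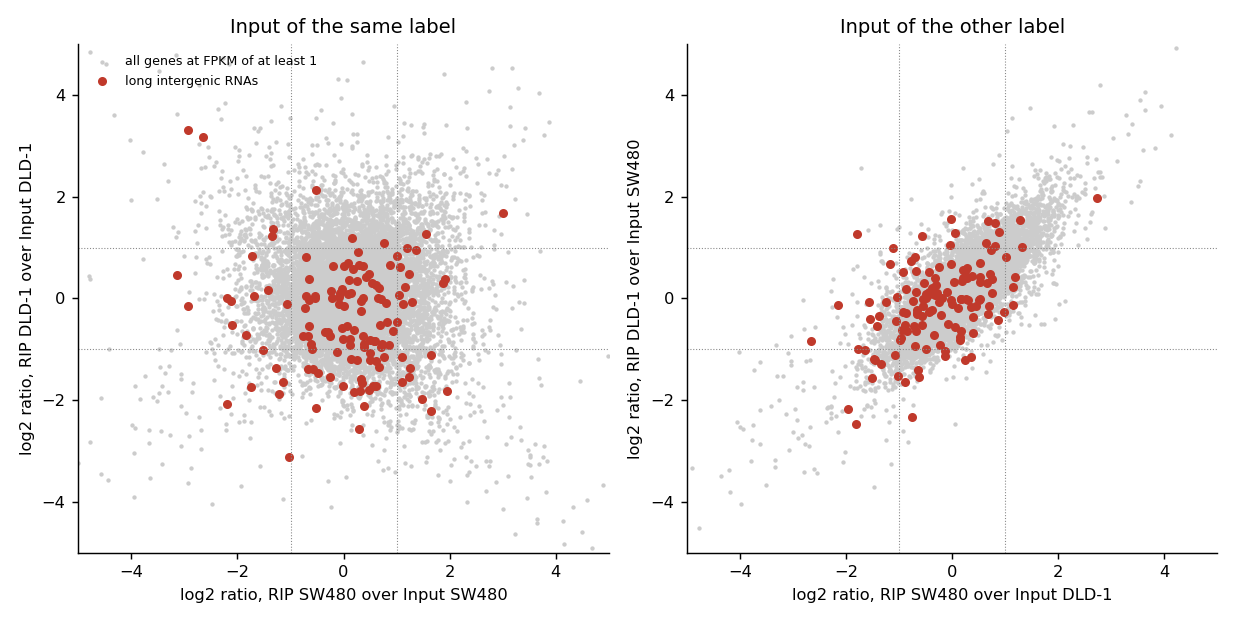
Log2 ratio of RIP to Input on FPKM + 1 in the libraries labelled SW480 (horizontal axis) and DLD-1 (vertical axis), over the Input of the same label (left) and of the other label (right). Red points are the 132 long intergenic RNAs, grey points the 10825 genes at FPKM of at least 1 (16 genes on the left and 12 on the right, no member among them, lie beyond the axes at 5), and dotted lines mark 2-fold, with 69 members on opposite sides of 0 on the left and 51 on the right.

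The RNAs above Input in both lines were led by AC005332.9 (ENSG00000278730). Its FPKM was 23.1 in RIP and 1.99 in Input labelled SW480, and 10.7 in RIP and 2.66 in Input labelled DLD-1, so both RIP libraries were higher than both Inputs. The log2 ratios were 3.01 ± 0.11 and 1.67 ± 0.11. Its acRIP-table Input labelled DLD-1, however, was 10.1 FPKM, and over that value, scaled, the second ratio was -0.48. EPB41L4A-AS1, the host gene of a small nucleolar RNA, had 19.9 and 6.08 FPKM in RIP and Input labelled SW480 and 19.6 and 7.59 FPKM in those labelled DLD-1. Its log2 ratios were 1.56 ± 0.083 and 1.26 ± 0.081, and both RIP libraries again stood above both Inputs. Over the scaled acRIP-table Inputs they were 0.93 and 0.02, under 2-fold in both lines. AC008608.2, at 4.30 and 1.32 FPKM and at 5.63 and 2.32 FPKM, was the third, with ratios of 1.19 ± 0.33 and 1.0 ± 0.32, which became 0.57 and 0.29 over the same Inputs.

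AL354707.1 and LINC00511 followed, both above Input in either line with the smaller ratio under 2-fold. AL354707.1 had 7.06 and 2.11 FPKM in the SW480 labels and 5.28 and 2.25 FPKM in the DLD-1 labels. LINC00511, studied as a growth-promoting RNA in several cancers, had 14.0 and 6.49 FPKM in the SW480 labels and 12.2 and 6.41 FPKM in the DLD-1 labels, with log2 ratios of 1.0 ± 0.096 and 0.83 ± 0.10.

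Among the 7 members at least 2-fold below Input in both lines, AC124861.1 was the lowest by the smaller of its ratios. Its FPKM was 1.65 in RIP and 11.2 in Input labelled SW480, and 1.20 and 8.29 in those labelled DLD-1, so both Inputs were high and both RIP libraries near the threshold. It is listed at 0 in the acRIP-table Input labelled DLD-1, over which the second ratio was 1.14 in place of -2.08. Z82243.1 had 1.57 and 7.67 FPKM in the SW480 labels and 3.86 and 15.2 FPKM in the DLD-1 labels, with log2 ratios of -1.75 ± 0.26 and -1.74 ± 0.22, the first of which was -0.46 over the scaled acRIP-table Input. LINC01534 (now ZNF567-DT), which starts 163 bases from the zinc finger gene ZNF567, had 1.24 and 4.45 FPKM in the SW480 labels and 1.70 and 6.0 FPKM in the DLD-1 labels. These 3 RNAs, chosen by these same levels, had no overlap between their RIP and Input levels.

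LINC00513 was at 6.01 and 15.2 FPKM in the SW480 labels and at 2.21 and 10.9 FPKM in the DLD-1 labels, with log2 ratios of -1.21 ± 0.18 and -1.89 ± 0.23. LINC02313 was at 1.60 and 4.73 FPKM and at 1.88 and 7.95 FPKM in the same order, and over the scaled acRIP-table Inputs its ratios were -0.30 and -0.96, under 2-fold in both lines. Of the other two, which fell outside the naming rule and were added after their values were seen, AC017002.1 had 3.79 and 8.77 FPKM in the SW480 labels and 1.17 and 17.8 FPKM in the DLD-1 labels. AC015726.1 had 1.24 and 5.42 FPKM and 1.05 and 3.15 FPKM. In all 7 the lower Input stood above the higher RIP level. They were chosen by these same levels, and the share of all genes with such an order was not counted.

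A larger share of members than of all genes lay apart between the Inputs of the lines. Between these Inputs, 13 members (9.85%) were at least 2-fold higher in the SW480 label, against 6.99% of all genes, and 27 (20.5%) at least 2-fold lower, against 8.81%. Of the 156 antisense RNA genes, 11 were at least 2-fold higher and 25 lower, the lower ones also a larger share than of all genes. Of the 248 processed pseudogenes, 30 were higher and 17 lower. Between both Input tables, same-label Inputs stood at least 2-fold apart for 17.4% and 16.7% of members (all genes, 7.94% and 8.06%). The part of such spread in the gap between the lines was not tested. Between the RIP libraries, 16 members (12.1%) were at least 2-fold higher in the SW480 label, against 7.16%, and 9 (6.82%) at least 2-fold lower, against 6.15%. The difference between the lines in Input ran against that in RIP, with a Pearson correlation of -0.60 across members and -0.80 across all genes.

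In both Input tables, 10 members were at least 2-fold higher in the SW480 label, against 5.23% of all genes, and 19 at least 2-fold higher in the DLD-1 label, against 6.55%. The tables may not be independent: 944 genes in the SW480 label and 979 in the DLD-1 label had values that stand for exactly equal reads in both, against 82 to 234 for Inputs of different labels, so the same libraries may stand behind both tables, which was not tested. Each of the 10 RNAs that were higher in Inputs labelled SW480 was lower in RIP labelled SW480 than in RIP labelled DLD-1, 6 of them by at least 2-fold (60.0%, against 61.1% among all genes of this kind). Of the 19 that were higher in Inputs labelled DLD-1, 17 were lower in RIP labelled DLD-1, 4 by at least 2-fold (21.1%, against 66.4%). Among all genes of these kinds the opposite order held for 97.5% of 566 and 96.6% of 709.

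**Figure D4:**
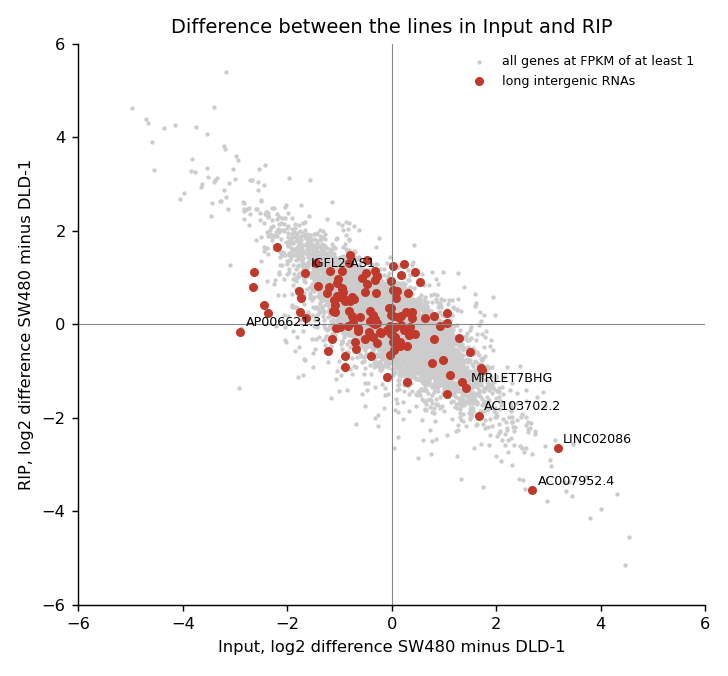
Log2 difference between the libraries labelled SW480 and DLD-1 in Input (horizontal axis) and in RIP (vertical axis), on FPKM + 1. Red points are the 132 long intergenic RNAs and grey points all 10825 genes at FPKM of at least 1, with the cloud sloping downward and LINC02086 and AC007952.4 toward its lower right.

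LINC02086, whose nearest coding gene is PRAC1, a gene expressed in prostate and distal colon, showed the widest gap between Inputs. Its FPKM was 30.2 in Input and 3.95 in RIP labelled SW480, and 2.44 in Input and 30.0 in RIP labelled DLD-1. High levels thus stood in Input labelled SW480 and in RIP labelled DLD-1. The log2 ratio of RIP to Input was -2.65 ± 0.087 for the SW480 labels and 3.17 ± 0.13 for the DLD-1 labels. Over the Inputs of the other label it was 0.52 and -0.0096. AC007952.4 had the same order, with 21.2 and 1.91 FPKM in Input and RIP labelled SW480 and 2.44 and 33.0 FPKM in those labelled DLD-1. AC015813.1 did as well, with 7.77, 2.47, 1.65 and 5.84 FPKM in the same order.

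The reverse order was seen for RNAs with high Input in the DLD-1 label. AP006621.3 (now GATD1-DT) had 1.43 FPKM in Input and 4.23 in RIP labelled SW480, and 17.1 in Input and 4.83 in RIP labelled DLD-1. AC007405.3 had 7.77 and 23.4 FPKM in Input and RIP labelled SW480 and 54.2 and 12.9 FPKM in those labelled DLD-1. AC247036.1 had 1.93 and 10.3 FPKM in the first pair and 17.3 and 4.18 FPKM in the second. AC007405.3 and AC247036.1 were thus highest in Input labelled DLD-1 and next highest in RIP labelled SW480. For AP006621.3 the RIP libraries stood close to each other, at a log2 difference of -0.15, while its Inputs differed by -2.90.

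Among members with a coding start upstream on the opposite strand, the median size of the log2 difference between the Inputs was 0.36 over 23 genes, against 0.75 over the 42 other members with a window. At least 2-fold apart were 5 of the 23 and 13 of the 42, against 15.8% of all genes. Their median log2 ratio of RIP to Input was 0.32 for the SW480 and -0.65 for the DLD-1 labels, against 0.05 and -0.02 for the others. This is a description of genes chosen by level.

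Of 45 lincRNA genes in the table with a microRNA host symbol, 5 were members, and 4 of them lay below Input in each line. These were not the same 4, as MIR4435-2HG lay above Input in the SW480 label (0.33) and MIR222HG in the DLD-1 label (0.0048). Of all 10825 genes, 6265 lay above Input in the SW480 and 5801 in the DLD-1 label. Hosts under other names, such as AC020916.1 and FTX, are not among the 5. In the SW480 label 2 of the 5 were at least 2-fold below Input (9.7% of all genes), and in the DLD-1 label 1 was (12.0%). Their median log2 ratio was -0.59 for the SW480 and -0.16 for the DLD-1 labels (all members, 0.20 and -0.46). MIRLET7BHG, the let-7 host whose microRNAs are shown above, had 1.88 and 21.0 FPKM in RIP and Input labelled SW480 and 6.38 and 7.23 FPKM in those labelled DLD-1. Its Input was high in the SW480 label, and its log2 ratio was -2.93 ± 0.070 there and -0.16 ± 0.076 in the DLD-1 label. MIR222HG, the host of miR-221 and miR-222, had 1.92 and 2.37 FPKM in the SW480 labels and 2.37 and 2.36 FPKM in the DLD-1 labels, all close to each other. Its acRIP-table Inputs, before scaling, lay further apart, at 2.28 in the SW480 and 0.498 in the DLD-1 label. MIR22HG had 4.95 and 7.95 FPKM and 4.79 and 10.5 FPKM, with RIP below Input in both lines. MIR4713HG had 1.26 and 8.90 FPKM in the SW480 labels and 2.41 and 2.51 FPKM in the DLD-1 labels.

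Of 46 long noncoding RNAs listed for a known role, 27 stood among the lincRNA genes of the table and 9 were members. In the SW480 labels 3 of the 9 were at least 2-fold above Input (17.2% of all genes) and none at least 2-fold below (9.7%). In the DLD-1 labels 2 were at least 2-fold below (12.0%) and none at least 2-fold above (17.0%). Their median log2 ratio was 0.33 and 0.04. LINC00460, linked to invasion in several cancers, had 8.95 and 7.13 FPKM in RIP and Input labelled SW480 and 9.88 and 5.91 FPKM in those labelled DLD-1. LINC00662 had 9.54 and 6.15 FPKM in the SW480 labels and 2.77 and 11.4 FPKM in the DLD-1 labels. Its log2 ratios were 0.56 ± 0.097 and -1.72 ± 0.10. Its acRIP-table Inputs were lower, at 1.80 in the SW480 and 3.03 in the DLD-1 label before scaling, so these ratios depend on the Input used. FTX, an RNA of the X-inactivation centre and a microRNA host, had 1.90 and 3.71 FPKM and 2.99 and 2.88 FPKM. LINC00467, which was later found to encode a small mitochondrial protein and was the only member on a list of 18 such genes, had 3.76 and 1.36 FPKM and 1.14 and 1.94 FPKM.

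Acetylation was read from the peak lists, which the choice of members did not use. In the acRIP library labelled SW480, 19 members (14.4%, 95% Wilson interval 9.41 to 21.4%) were hosts of an ac4C peak, against 49.3% of the 10825 genes. In that labelled DLD-1 it was 16 members (12.1%, 7.6 to 18.8%), against 54.8%, and in both 7 members (5.3%, 2.59 to 10.5%), against 38.7%. Peak calls depend on level, so the share was also taken over 2400 coding genes between the lower and upper quartile of the members' mean level. It was 34.6% and 36.8% there, and 19.7% and 9.09% over the 66 members within the same bounds. These coding genes were matched by level only and not by transcript length, whose part in the shares was not tested. At FPKM of at least 5 in all 4 libraries, 2 of 23 members were hosts in the SW480 label and 8 in the DLD-1 label. The low share in the DLD-1 label is thus given for FPKM of at least 1, and shares of other genes at the higher filter were not taken. Antisense RNA genes had shares of 17.3% and 13.5%, and processed pseudogenes of 16.1% in either label. The depth of the acRIP libraries is unknown. The intervals treat genes as independent draws from 1 library and hold no error between libraries.

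**Figure D5:**
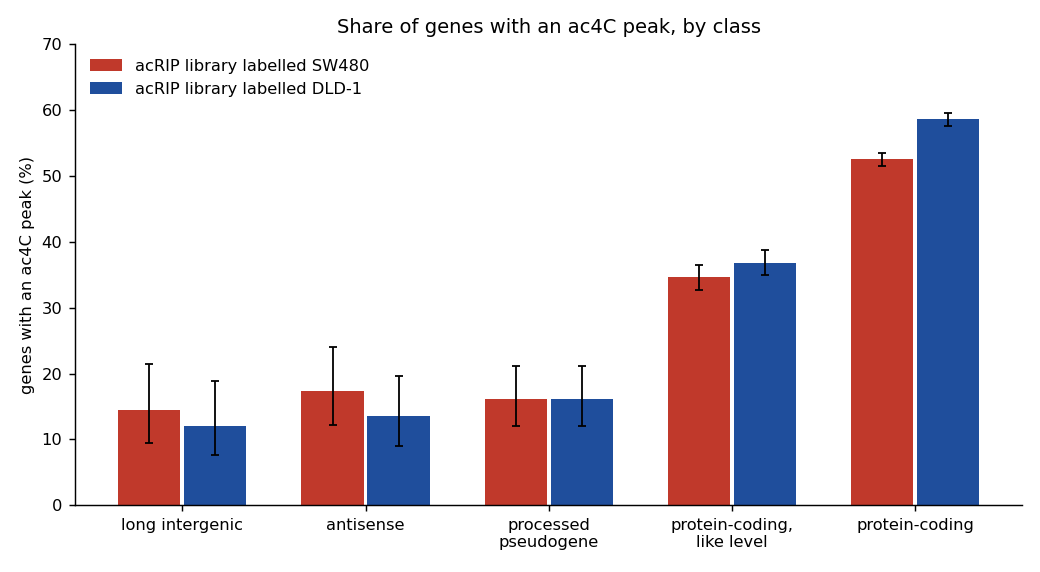
Share of genes at FPKM of at least 1 in all 4 libraries that host an ac4C peak (vertical axis, %), by gene class, in the acRIP libraries labelled SW480 (red) and DLD-1 (blue). Bars are shares and lines 95% Wilson intervals, with long intergenic RNAs at 14.4% and 12.1% and coding genes of like level at 34.6% and 36.8%.

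The members held 21 peaks in each library, on 19 and 16 hosts, and in each library 20 were classed as exonic by the authors. Their median fold of acRIP over Input was 15.6 in the SW480 and 11.8 in the DLD-1 label, against 19.5 and 14.6 over all peaks. A site of the pattern named in the headers of the peak lists, 4 Cs with any other 2 bases between neighbours, was given for 9 of 21 peaks (42.9%) in either label, against 56.2% and 55.1% of all peaks.

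Among the 7 hosts in both lines, the peaks of 5 overlapped in position and those of 2 did not. AP002360.2 (EMSY-DT) led by the smaller of its folds, with 48.9 in the SW480 and 29.9 in the DLD-1 label, and its peaks at chr11:76441541-76444337 and chr11:76441454-76444280 on GRCh38 span an intron. Its Input level was 1.58 FPKM in the SW480 and 12.2 FPKM in the DLD-1 label, so the fold was similar where the level was not. AC015813.1 had folds of 15.6 and 15.7 at chr17:57989069-57989279 and chr17:57989129-57989339. Both of these peaks were classed by the authors as 3′ untranslated region and not as exonic. AL392172.1 had 11.5 and 17.3, and AC020916.1 (MIR23AHG) had 44.5 and 9.44, its peaks lying downstream of the 3 microRNAs shown above. MAPKAPK5-AS1 had 11.5 and 16.5, but its peaks were 296 bases apart.

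NORAD carried 3 peaks in the DLD-1 label and none in the SW480 label, although its Input was the higher one in the SW480 label. The peaks lay 1110 to 1260, 2639 to 2819 and 5098 to 5278 bases from its start, with folds of 18.1, 4.98 and 35.4, and none held the C pattern. LINC01089 had the highest fold of all members, 134, at chr12:121795357-121795866 in the SW480 label, with 7 sites of the pattern, and no peak in the DLD-1 label. It falls outside the naming rule and was chosen after its value was seen. LINC01106, at the FPKM threshold, had a peak with a fold of 60.4 in the SW480 label. Of the members with RIP above Input in both lines, AC005332.9 had a peak with a fold of 21.9 in the SW480 label, and EPB41L4A-AS1, LINC00511, AL354707.1 and AC008608.2 had none.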

How the data were processed

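RIP-seq and Input libraries of SW480 and DLD-1 were described from a deposited table of FPKM values that the authors' sequencing provider made, and Input levels also from a second deposited table, read as FPKM although its unit is not named. GRCh38 and hg38 are named in the submitters' processing notes, as are cutadapt 2.5 and HISAT2 2.1.0, without their roles (GRCm38 is named there too). The counting tool and strand setting are not given in the sources used here. The published text mentions IgG as control, whereas labels and table name Input. Peak lists were deposited for each acRIP library and for the pool, with a p-value, a fold ratio of acRIP over Input and a count of pattern sites given by the authors. The peak caller is not given in the sources used here, starts were moved by 1 base to count from 1, and the authors' RIP/Input ratio columns were not used.

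The deposited FPKM columns were turned into the smallest whole reads that fit all 4 columns of a gene, with a tolerance of 0.002 reads (23508 of 23515 genes above 0 in at least 2 columns, all 132 members). On simulated reads of the RIP table (23260 genes), 99.5% of genes were recovered up to a common divisor. Ratios were log2((FPKM + 1)/(FPKM + 1)), which understates changes of low genes, and were called at 2-fold. With 1 library per group the ratios carry no test, and SEs cover counting error only, as PCR copies are not independent molecules. The acRIP-table Inputs were scaled by 1.47 (SW480) and 1.52 (DLD-1), from the median of 9382 coding genes.

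Members, lists and named genes were chosen with earlier results of these data known. Named were the 6 highest members, the 5 highest and 5 lowest by the smaller ratio among those of the same sign in both lines, the 3 largest differences between Inputs each way that both tables share in sign, all members of the lists, the 5 highest shared peaks and those at the threshold. RefSeq sequences are of GRCh38.p14. Alternatives were another pseudocount, centring, Inputs of the other label or table, other filters, peak rules and limma 3.58.1 with both lines as replicates, with and without the line as block. Scripts ran in Python 3.11.15 and R 4.3.3.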

Additional observations from a re-analysis of the deposited data

Results flagged for a closer look

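The median log2 ratio of RIP to Input over the 132 RNAs was 0.20 for the libraries labelled SW480 and -0.46 for those labelled DLD-1, opposite ways in the lines. The difference was not tested, since each group held 1 library. Of the named RNAs, 8 were at least 2-fold apart from Input in opposite ways in the lines, as were 5.89% of all genes. LINC02086, AC007952.4, AC015813.1, AP006621.3, AC007405.3 and AC247036.1 were named for their wide gap between Inputs. That gap enters the ratios of both lines, so for these RNAs the opposite ways follow in part from the naming rule. Above Input in the SW480 and below it in the DLD-1 label were IGFL2-AS1 (log2 ratios of 1.23 and -1.54), AC007405.3 (1.48 and -1.99), AC247036.1 (1.95 and -1.82), AP006621.3 (1.11 and -1.64) and AP002360.2 (1.25 and -1.37). Below Input in the SW480 and above it in the DLD-1 label were LINC02086 (-2.65 and 3.17), AC007952.4 (-2.93 and 3.31) and AC015813.1 (-1.34 and 1.37). None of these differences was tested. Beside them stand the levels, in which each RIP library correlated better with the Input of the other label across members (0.69 and 0.73) than with its own (0.50 and 0.51), and its part in these ratios was not tested.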

How the results depend on the processing

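The direction of the medians depended on the Input and the filter. The median log2 ratio of RIP to Input in the SW480 label was 0.20, and became -0.0015 when centred on coding genes (whose own medians were 0.20 and 0.11 in the SW480 and DLD-1 labels), -0.32 over the Input of the other label and -0.21 over the opposite one of the acRIP table. In the DLD-1 label it was -0.46, and became -0.061 and -0.020 over these same Inputs, 0.15 over the 23 members at FPKM of at least 5, 0 over all lincRNA genes above 0 in at least 1 library, and -0.24 with the genes left out by name. The counts above Input were 3 in both lines, 22 in the SW480 and 10 in the DLD-1 label, and those below were 7, 21 and 38. With a pseudocount of 0.1, 5 were above in both lines, and 28 in place of 16 were higher in RIP labelled SW480. Centred, 13 were above in the SW480 label. Over the Input of the other label, 7 were above in the SW480 and 17 below in the DLD-1 label. Over the acRIP-table Input of the same label, 36 were above in the SW480 label, and over that of the other label 14 in the SW480 and 21 in the DLD-1 label, 7 in both, with 21 below in the DLD-1 label and 44 with opposite signs in place of 69. At FPKM of at least 5, the counts above were 6, 1 and 1 in the SW480 label, the DLD-1 label and both, those below 2, 6 and 0, and 12 had opposite signs. The shares of all genes at this filter were not taken. Over all lincRNA genes above 0 they were 239, 131 and 24 above, 237, 421 and 60 below, and 799 with opposite signs. Between the lines at FPKM of at least 5, 2 were higher and 8 lower in Input labelled SW480, and 2 higher and 2 lower in RIP. The acRIP-table Inputs gave 20 higher in place of 13. Ac4C hosts were 19, 16 and 7 in the SW480 label, the DLD-1 label and both. For peaks with a p-value under the list's median they were 6, 4 and 1. By overlap with the span of the 65 members with a start window they were 11, 8 and 3. The pooled list gave 29 (22.0%, against 61.5% of all genes), and the 23 members at FPKM of at least 5 gave 2, 8 and 2. Apart from the pooled list and the Input of the other label, shares of all genes under these other settings were not taken. The cause of these shifts was not tested, apart from the filters and the span rule, which change the number of genes. Among the 65 members with a start window, 18 of 20 host calls had a peak within the span, and the span added 1 call.

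By label, RIP and Input pair by cell line, although each RIP library correlated better with the Input of the other label. So few libraries leave little to estimate the spread from, least of all with the line as block. With both lines as replicates, limma (Benjamini-Hochberg adjusted p under 0.05) called 0 members in place of the 10 beyond 2-fold in both lines, and 0 of all 10825 genes, without a replicate block and with the cell line as replicate block. At an unadjusted p under 0.05 it gave 23 members (17.4%, against 17.6% of all genes) without and 9 (6.82%, against 6.21%) with the block, so the members stood near the background in both.

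Of the named RNAs, the called ratio changed sign over the Input of the other label for IGFL2-AS1 (-0.44 and 0.12 in the SW480 and DLD-1 labels), AC007405.3 (-1.18 and 0.67), LINC02086 (0.52 and -0.0096), AC247036.1 (-0.69 and 0.82), AP006621.3 (-1.79 and 1.26), AP002360.2 (-1.11 and 1.0) and AC015813.1 (0.39 and -0.36). Over the acRIP-table Input of the same label it did so in the DLD-1 label for MIR4435-2HG (0.26), AC005332.9 (-0.48) and AC124861.1 (1.14). Of the 45 ratios of named RNAs at least 2-fold from Input, a further 13 and 14 fell under 2-fold with their sign kept over these Inputs, as did 6 after centring, and 8, 8 and 4 smaller ratios changed sign under these settings.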
